A study of Mus musculus with 12 samples.

Results

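AP-1 is a family of transcription factors whose genes respond within minutes to hours to injury and growth signals, and 8 of its genes were followed here across injured and uninjured mouse spinal cord: Fos, Fosb, Fosl1, Fosl2, Jun, Junb, Jund and Atf3. The members were all probe sets of the array whose single gene symbol is one of these 8 genes. They are 8 of 12393 genes on the array and had 10 such probe sets among 20380 with 1 gene symbol, with a pair each for Fosl1 and Jun and 1 for every other gene. The arrays came from female wild-type C57BL/6 mice aged 10 weeks, operated either with an 80% transection of the cord (injured) or with laminectomy alone, which the controls and the injured mice shared (sham; the sample titles call these cords naive). Spinal cord spanning 2.5 cm around the site was taken 9 hours after the operation and homogenised. Part of the homogenate gave total RNA, and the rest was fractionated on a sucrose gradient to give RNA bound to polysomes, that is, to several ribosomes at once. Each of the 4 groups (sham and injured, total and polysome-bound) had 3 arrays, which the labels call biological replicates without saying whether each came from 1 mouse, so p-values measure the spread between these samples. The cord segment holds many cell types, and in such bulk tissue fewer cells of a type and less RNA per cell cannot be told apart.

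AP-1 proteins bind DNA as pairs joined through a leucine zipper. Jun proteins can pair with one another or with Fos proteins, whereas Fos proteins do not form stable pairs among themselves. Fos, Fosb, Jun, Junb and Atf3 are immediate early or early response genes, whose short-lived transcripts rise after depolarisation, growth factors or stress and are cleared quickly. Jund is expressed more steadily in many tissues. Jun and Atf3 are also well known as genes switched on in neurons whose axons have been cut.

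The Fos and Jun genes are classic targets of the cyclic AMP response and of AP-1 itself, through motifs near their start sites, so the promoter windows were searched for such letters. The windows, from RefSeq on GRCm38.p6, hold 250 bases before and 50 bases after each start, and 7 of the 8 genes had one (Fosl1 did not). The AP-1 motif TGANTCA stood in none of the 7 windows, against 7.81% of 32851 windows of all genes. The variant TGACNTCA, which stood in 8.83% of all windows, was found in Jun, and the CREB core TGACGT, which stood in 7.51%, was found in Fos and Atf3. Both strands were read, and a full palindromic CREB element would count under both of the last motifs. These motifs were chosen after the windows had been viewed, and a match describes letters, not binding. The matching stretches are printed on the strand of the gene, with the motif in capitals, because these are the members whose injury response is described most fully here. The capitals in the Atf3 stretch are the CREB core read on the opposite strand.
Fos, chr12:85473804-85473849, plus strand: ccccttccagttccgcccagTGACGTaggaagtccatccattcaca
Jun, chr4:95052240-95052287, minus strand: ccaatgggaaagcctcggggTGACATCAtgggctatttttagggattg
Atf3, chr1:191183334-191183361, minus strand: tggaagctattaatagcattACGTCAgc
The windows of Fosb, Fosl2, Junb and Jund held none of the 3 motifs.

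All values below are the deposited log2 values of a probe set, so 1 unit is a factor of 2 on the array's scale, and levels of different probe sets are not set against each other. A probe set was called above background on an array where it exceeded every one of 27 control probe sets for bacterial transcripts that should be absent. The highest such control averaged 7.04 (sham) and 6.85 (injured) on the total RNA arrays, and 6.46 and 6.44 on the polysome arrays. Several array measures moved with injury. The 18 hybridization controls were lower on injured arrays by 0.55 in total and 0.43 in polysome-bound RNA (log2 values, change from sham of -0.55 and -0.43), and the 3′ minus 5′ difference was larger by 1.17 and 1.96 for Gapdh and by 0.34 and 1.58 for Actb. None of these groups overlapped (exact permutation p = 0.1, the smallest that 3 against 3 arrays can give). The same difference for Pcx was 0.29 larger in total RNA, without overlap, and -0.04 on polysomes, with overlap, while for Tfrc it was lower in total RNA (-0.21, no overlap) and -0.04 on polysomes, with overlap. Their part in the results was not tested. Defining markers of neurons (10 of 10 on the array), astrocytes (7 of 7) and oligodendrocytes (6 of 6) lay above background in all groups, as the tissue label says. Of the 8 monocyte and neutrophil markers on the array, Ccr2 and Mpo were at background throughout. The summed level of those 8 in total RNA was 11.27 to 11.64 for sham and 12.24 to 12.95 for injured cord. On polysomes it was 10.60 to 10.83 and 10.83 to 11.77, with a slight overlap. Cd14, S100a8 and S100a9 were higher after injury in both fractions. Lyz2 changed little in total RNA (9.15 in sham and 9.23 in injured cord) and was lower on injured polysomes (8.33 and 7.29). Itgam and Plac8 exceeded background on fewer than 2 polysome arrays of each cord. The summed level of neuron markers was also higher in injured total RNA (15.67 to 15.75 in sham, 15.85 to 15.91 in injured cord). So were those of astrocyte markers (13.72 to 13.79 and 14.08 to 14.11) and 3 Schwann cell markers (12.34 to 12.70 and 13.07 to 13.35). That of 4 homeostatic microglial markers was lower (11.41 to 11.50 and 11.18 to 11.30). A sum follows its brightest genes. Rbfox3 (8.47 in sham and 7.64 in injured total RNA), Syt1 (8.28 and 7.35) and slightly Aqp4 (11.93 and 11.87) were lower. The other neuron and astrocyte markers were higher there. On polysomes the summed level of astrocyte markers was lower after injury (13.06 to 13.23 in sham, 12.97 to 12.98 in injured cord). So were those of Schwann cell markers (11.83 to 11.87 and 11.43 to 11.52) and microglial markers (10.63 to 10.79 and 10.24 to 10.44). Those of neuron markers overlapped (15.59 to 15.66 and 15.62 to 15.69). Single markers were mixed there too. Gfap (11.22 in sham and 11.63 in injured cord), Aldh1l1 (8.88 and 9.44), Sox9 (8.27 and 8.61) and Egr2 (6.28 and 6.98) were higher. Aqp4 (11.20 and 9.99), Gja1, Slc1a2, Slc1a3, Pmp22 and Sox10 were lower. The part of these shifts in the AP-1 values was not tested.

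After injury, 6 of the 8 AP-1 genes had a probe set called higher both in total RNA and on polysomes: Fos, Fosb, Fosl1, Jun, Junb and Atf3. The pairs of probe sets disagreed on polysomes. Jun 1417409_at was called in total RNA alone, and Fosl1 1417488_at was at background on every array. Fosb and Fosl1 were dim: in total RNA Fosb exceeded background on 0 of 3 sham and 1 of 3 injured arrays and its call (adjusted p = 0.0498) was lost without any 1 of 8 arrays, and on polysomes Fosl1 exceeded it on 0 of 3 sham and 1 of 3 injured arrays. Fos had the greatest rise of the members in total RNA and Junb the greatest on polysomes. Fosl2 fell slightly in total RNA, and Jund, the steady member of the Jun group, stayed below the threshold in both fractions. In limma's fit of all 12 arrays, 9 member probe sets passed the filter on dim values, and the second Fosl1 probe set did not. Of those 9, 7 rose and 1 fell in total RNA, and 6 rose and 0 fell on polysomes, at an adjusted p under 0.05. Fosb and the tested Fosl1 probe set exceeded the filter level, the array's 25th percentile, on only 6 of 12 arrays each. Mean percentiles of Fosl1 were 37.5 and 32.2 on injured total and polysome arrays, and 18.4 and 16.1 on sham ones. For Fosb they were 26.3 and 33.4, and 15.7 and 22.1. Both were thus admitted mainly through injured arrays, so their rises add no independent support to these counts and medians. Change was common: of 16555 probe sets tested, 59.8% were called in total RNA (37.4% higher) and 38.8% on polysomes (11.8% higher). The median change of the 9 was 0.50 in total RNA, beside 0.08 for all probe sets tested, and 0.40 on polysomes, beside -0.05. Sham and injured arrays did not overlap for 7 of the 9 in each fraction, beside 72.5% of all tested probe sets in total RNA and 46.1% on polysomes.

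These directions depend on how arrays are set against each other, since the share of calls that were higher was 62.5% in total RNA and 30.4% on polysomes as deposited. It was 51.0% and 49.2% after quantile normalization over all arrays and 50.8% and 49.4% within each fraction, and 52.1% on polysomes with arrays centred on their medians. With arrays centred on the hybridization controls, an alternative chosen after the data were seen, 98.8% and 96.9% of calls were higher. Of the 9 members tested, 7, 7, 6 and 9 were called higher in total RNA under these 4 alternatives in turn, and 7, 8, 8 and 9 on polysomes.

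**Figure D1:**
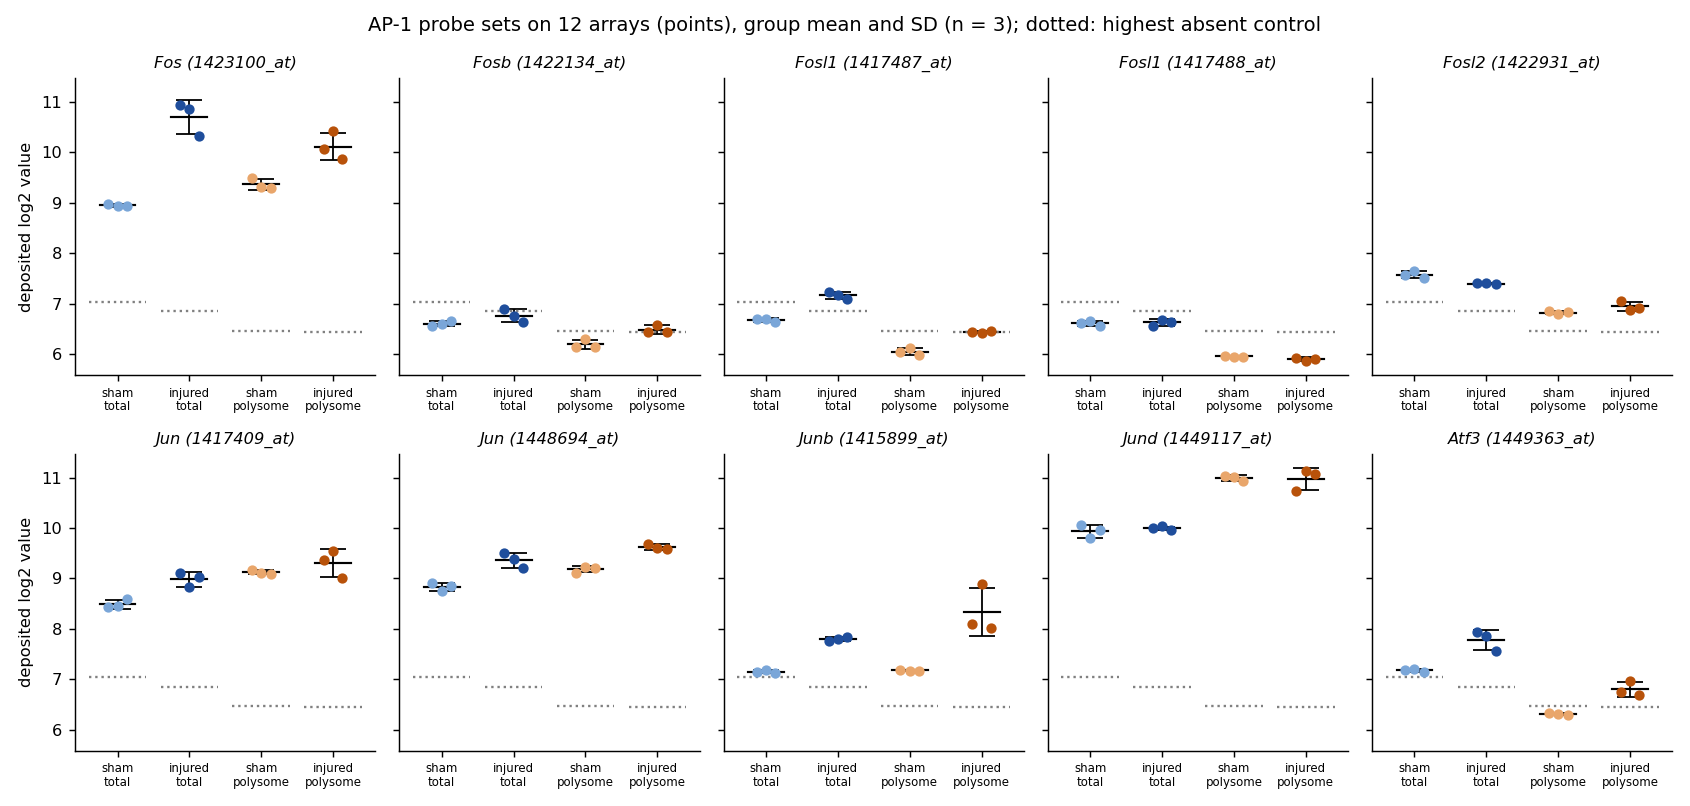
Deposited log2 value (y axis) of each of the 10 AP-1 probe sets in the 4 groups; points are single arrays, bars the mean and SD (n = 3), and dotted lines the group's mean of the highest absent control. Fos lies near 9 in sham total RNA (8.93 to 8.98) and at 10.32 to 10.93 after injury, while the second Fosl1 probe set (1417488_at) stays under the dotted line in every group.

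Fos (probe set 1423100_at), the founding Fos protein and partner of Jun, stood far above background in every group. Its values in total RNA were 8.98, 8.94 and 8.93 on the sham arrays and 10.93, 10.86 and 10.32 on the injured ones. All 3 injured arrays lay above all 3 sham arrays, and the third injured array was the lowest of its group. The rise was 1.76 (SE 0.15, 3.38-fold, limma adjusted p = 9.2e-07), at percentile 99.7 of the changes of all tested probe sets. Polysome-bound RNA gave 9.50, 9.31 and 9.29 in sham and 10.06, 10.41 and 9.87 in injured cord, again without overlap. That rise was 0.75 (SE 0.15, 1.68-fold, adjusted p = 0.0012), at percentile 99.4. Thus Fos stood among the strongest responders of either fraction, but with a smaller step on polysomes.

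Of the other Fos-type genes, Fosb and Fosl1 were dim. Fosb (1422134_at), which is induced with Fos and encodes a longer and a truncated protein, read 6.54, 6.60 and 6.65 in sham and 6.89, 6.76 and 6.63 in injured total RNA. One injured array fell among the sham arrays, and only 1 of 3 injured arrays and 0 of 3 sham arrays exceeded background. The difference of 0.16 (SE 0.07) just passed the threshold (limma adjusted p = 0.0498) and lost the call without any 1 of 8 arrays, among them each sham total array (0.14 to 0.19) and injured total replicate 1 (0.10). On polysomes Fosb read 6.14, 6.29 and 6.13 in sham and 6.43, 6.58 and 6.44 in injured cord, and these groups did not overlap. The rise was 0.29 (SE 0.07, adjusted p = 0.0037), with 0 of 3 sham and 2 of 3 injured arrays above background, so the size of the change at the RNA level has only a bound, at least 1.01-fold.

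Fosl1, which encodes Fra-1, a Fos protein without the transactivation domain of Fos, was measured by a pair of probe sets that disagreed. Probe set 1417487_at read 6.69, 6.69 and 6.63 in sham and 7.22, 7.17 and 7.09 in injured total RNA. Its polysome values were 6.03, 6.12 and 5.98 in sham against 6.43, 6.42 and 6.46. No injured array overlapped a sham array in either fraction. The rises were 0.49 (SE 0.05, limma adjusted p = 4.0e-06) in total RNA and 0.40 (SE 0.05, adjusted p = 4.0e-05) on polysomes. Every sham array was at background, and 3 of 3 injured total arrays but 1 of 3 injured polysome arrays were above it, so total RNA gave a bound of at least 1.09-fold and polysomes gave none. A bound here compares the injured mean with the mean of the highest absent control. The other probe set (1417488_at) was not above background on any array and lay between 5.85 and 6.68, with differences of 0.02 in total RNA and -0.06 on polysomes in a fit without the filter.

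Fosl2, which encodes Fra-2, was above background on all 12 arrays (1422931_at). It read 7.57, 7.65 and 7.50 in sham and 7.40, 7.40 and 7.38 in injured total RNA, so that each injured array lay below each sham array. The fall was small (log2 change -0.18, SE 0.06, limma adjusted p = 0.012). It was not called after quantile normalization over all arrays (-0.14, adjusted p = 0.094) or without sham total replicate 2 (-0.14, adjusted p = 0.064), and with centring on the hybridization controls its sign turned (0.37). On polysomes the values were 6.85, 6.79 and 6.83 in sham and 7.05, 6.87 and 6.92 in injured cord. The groups did not overlap, with the injured arrays above, but the difference of 0.12 (SE 0.06) missed the threshold (adjusted p = 0.094). Without injured polysome replicate 2 it was 0.16 and passed (adjusted p = 0.040).

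Jun, the AP-1 subunit phosphorylated by the JNK kinases, was measured by a pair of probe sets far above background. Probe set 1448694_at read 8.91, 8.75 and 8.84 in sham and 9.50, 9.38 and 9.20 in injured total RNA. Its polysome values were 9.11, 9.22 and 9.21 in sham against 9.69, 9.59 and 9.58. All injured arrays stood above the sham arrays of their fraction. It rose by 0.53 (SE 0.08, 1.44-fold, limma adjusted p = 8.7e-05) in total RNA and by 0.44 (SE 0.08, 1.36-fold, adjusted p = 0.00057) on polysomes. Probe set 1417409_at read 8.42, 8.45 and 8.59 in sham and 9.11, 8.82 and 9.03 in injured total RNA, a rise of 0.50 (SE 0.11, adjusted p = 0.0019) close to that of the other probe set. The polysome values were 9.17, 9.12 and 9.09 in sham and 9.37, 9.55 and 9.01 in injured cord, with the third injured array below every sham array. The difference of 0.19 (SE 0.11) was not called (adjusted p = 0.21), and was 0.34 and called without injured polysome replicate 3 (adjusted p = 0.010).

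Junb (1415899_at), an immediate early Jun protein that can restrain as well as replace Jun, was near background in sham total RNA. Its mean lay 0.11 above the highest absent control there and 0.71 above it on sham polysomes. After injury these distances were 0.95 and 1.89. Junb read 7.15, 7.18 and 7.12 in sham and 7.75, 7.80 and 7.84 in injured total RNA, without overlap. On polysomes the sham arrays were within 0.02 of each other, at 7.19, 7.17 and 7.17, whereas the injured arrays read 8.09, 8.89 and 8.02. The second injured polysome array was the highest, yet the other 2 also lay above all sham arrays. Junb rose by 0.65 (SE 0.15, 1.57-fold, limma adjusted p = 0.0028) in total RNA and by 1.16 (SE 0.15, 2.24-fold, adjusted p = 6.7e-05) on polysomes, where it was at percentile 99.7 of all changes. Leaving out injured polysome replicate 2 left a rise of 0.89.

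Jund (1449117_at) read 10.05, 9.80 and 9.95 in sham and 9.99, 10.03 and 9.97 in injured total RNA. The polysome arrays read 11.04, 11.02 and 10.93 in sham and 10.73, 11.13 and 11.08 in injured cord. The sham and injured arrays overlapped in both fractions. The differences of 0.06 (95% interval -0.14 to 0.26, limma adjusted p = 0.60) in total RNA and -0.02 (-0.22 to 0.19, adjusted p = 0.92) on polysomes were not called, and no interval excluded 0. The sign depended on the scaling: quantile normalization over all arrays gave a called -0.22 in total RNA, and centring on the hybridization controls gave called values of 0.61 and 0.42 in the 2 fractions.

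Atf3 (1449363_at), a stress-induced factor that pairs with Jun proteins and marks axotomised neurons, rose in both fractions. It read 7.18, 7.20 and 7.15 in sham and 7.94, 7.85 and 7.56 in injured total RNA. On polysomes it read 6.32, 6.32 and 6.28 in sham and 6.75, 6.96 and 6.69 in injured cord. Each injured array was above each sham array of its fraction, and the third injured array was the lowest of its group in total RNA. The rises were 0.61 (SE 0.09, 1.52-fold, limma adjusted p = 6.1e-05) in total RNA and 0.49 (SE 0.09, adjusted p = 0.00049) on polysomes. Sham polysome arrays were at background, so that second rise was at least 1.26-fold.

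**Figure D2:**
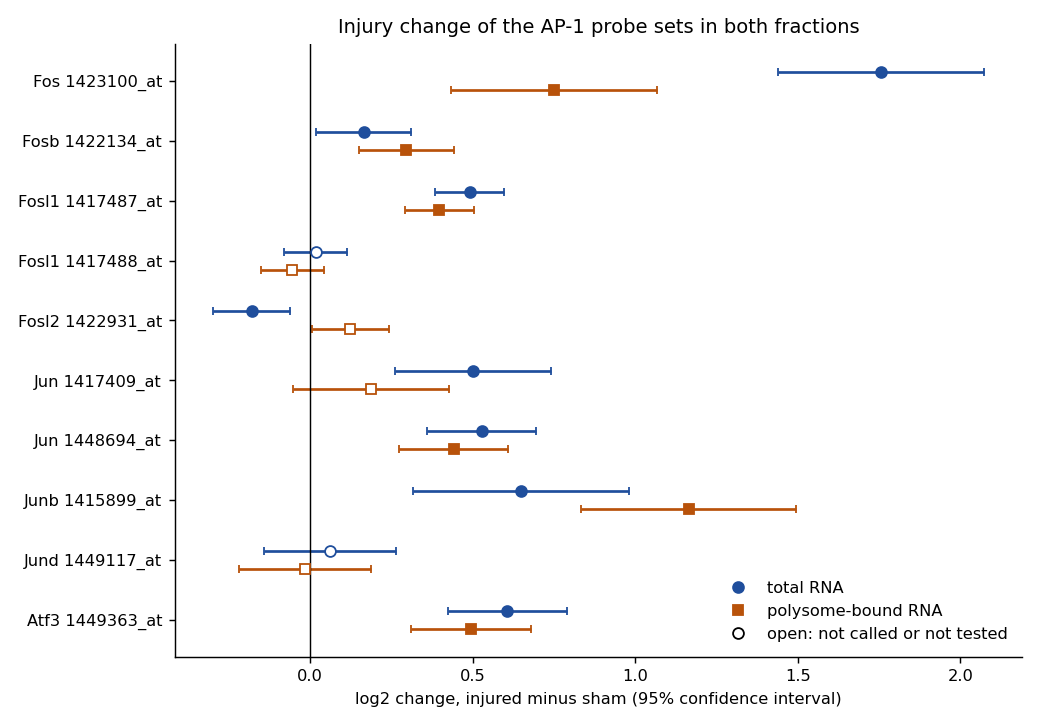
Log2 change, injured minus sham (x axis), with 95% confidence intervals from limma for each AP-1 probe set in total RNA (blue circles) and polysome-bound RNA (orange squares); open symbols were not called or, for the second Fosl1 probe set, not tested. Fos sits farthest right in total RNA (1.76) and Junb farthest right on polysomes (1.16), with Jund on the zero line in both.

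Whether the injury change differed between the fractions was tested as an interaction, the polysome change minus the total RNA change. Fos had the smaller change on polysomes, by 1.01 (log2 difference -1.01, SE 0.21, limma adjusted p = 0.0016), and Fosl2 the higher one, by 0.30 (SE 0.08, adjusted p = 0.0059). These were the only calls among the 9 members tested, and the background was 50.5% of all tested probe sets. The median interaction of all probe sets was -0.14, relative to which Fos stood at -0.87 and Fosl2 at 0.44. The call of Fosl2 was lost with centring on the hybridization controls (0.19, adjusted p = 0.30). As deposited, 26.8% of interaction calls were higher, and this was 47.8% after quantile normalization over all arrays, 48.1% within each fraction, 42.0% after median centring and 7.56% with the hybridization controls.

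Junb went the other way from Fos, with an interaction of 0.52 (SE 0.22, 95% interval 0.05 to 0.99) that missed the threshold (limma adjusted p = 0.062). It was called without injured polysome replicate 1 (0.64), 2 (0.24) or 3 (0.67), so its size rested on replicate 2. With a block on number within operation the interaction of Junb was called (limma adjusted p = 0.048), but equal numbers are not shown to pair the injured arrays. The difference between Junb and Fos was not tested. Atf3 (-0.11, adjusted p = 0.46), the brighter Jun probe set (-0.09, adjusted p = 0.53), Fosl1 (-0.09, adjusted p = 0.28), Fosb (0.13, adjusted p = 0.27) and Jund (-0.08, adjusted p = 0.66) were not called. The other Jun probe set, 1417409_at, gave -0.31 (adjusted p = 0.11) and passed without injured polysome replicate 2 (-0.43, adjusted p = 0.019). A missed threshold does not show that the fractions changed alike, and where sham arrays were at background, as for Atf3 on polysomes and for Fosl1 and Fosb in both fractions, the measured interaction is not exact. Junb lay on average only 0.11 above the highest absent control in sham total RNA, so its interaction may be inexact too.

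The standing of each transcript on polysomes relative to total RNA differed widely among the members. Because the arrays of the fractions have different medians, these differences are read against the median difference of all tested probe sets, which was -0.35 in sham and -0.44 in injured cord, where 81.1% and 86.6% of probe sets were called. Of the 9 members, 4 were higher and 4 lower on polysomes in sham cord, and 4 higher and 5 lower in injured cord. Jund was the most polysome-weighted member: it was higher on polysomes by 1.06 in sham cord (SE 0.09, limma adjusted p = 9.6e-08) and by 0.98 in injured cord, at percentiles 99.4 and 98.6 of all tested probe sets. Both Jun probe sets were higher as well, by 0.35 and 0.64 in sham and by 0.26 and 0.32 in injured cord. The last of these values lost its call without injured total replicate 2 (0.24) or injured polysome replicate 2 (0.20).

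Fos and Junb were the members whose measured standing moved most with injury. The shift of Junb (0.52) missed the threshold. It was 0.24 without injured polysome replicate 2, below the 0.30 of Fosl2 over all arrays, so its rank rested on that array. Fos was 0.42 higher on polysomes in sham cord (SE 0.15, limma adjusted p = 0.018) and 0.59 lower in injured cord (log2 difference -0.59, adjusted p = 0.0018), which is 0.77 above and 0.15 below the median of all probe sets (-0.15 after subtraction). The sham value lost its call without sham polysome replicate 1 (0.35, adjusted p = 0.071), and the injured value was 0.01 once arrays were centred on their medians. Junb showed 0.02 in sham (adjusted p = 0.90) and 0.54 in injured cord (adjusted p = 0.0046), the latter 0.26 without injured polysome replicate 2. Its sham total RNA was near background (0.11 above the highest absent control), so the sham value may not be exact. Array medians as the zero point, or quantile normalization over all arrays, also turned Junb in sham cord into a called 0.53 and 0.60.

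Atf3 and Fosl2 were lower on polysomes in both cords, Atf3 by log2 differences of -0.87 in sham and -0.98 in injured cord (limma adjusted p = 2.6e-07 and 5.9e-08) and Fosl2 by -0.75 and -0.45. Relative to the median of all probe sets, Atf3 stood at -0.52 and -0.54, and its sham polysome arrays were at background, so the sham difference is not exact. For Fosl1 (-0.63 and -0.72) and Fosb (-0.41 and -0.28) all sham arrays were at background, where the highest absent controls themselves averaged 7.04 in total RNA and 6.46 on polysomes, so these sizes have no rank among the members. The sign of Fosb turned in both cords after quantile normalization over all arrays (0.17 and 0.22). That of Fosl2 turned in injured cord (0.14). The share of calls higher on polysomes went from 22.9% in sham and 14.8% in injured cord to 53.8% and 53.3% with that normalization, to 68.5% and 65.9% with median centring, and in sham cord to 35.6% with the hybridization controls.

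**Figure D3:**
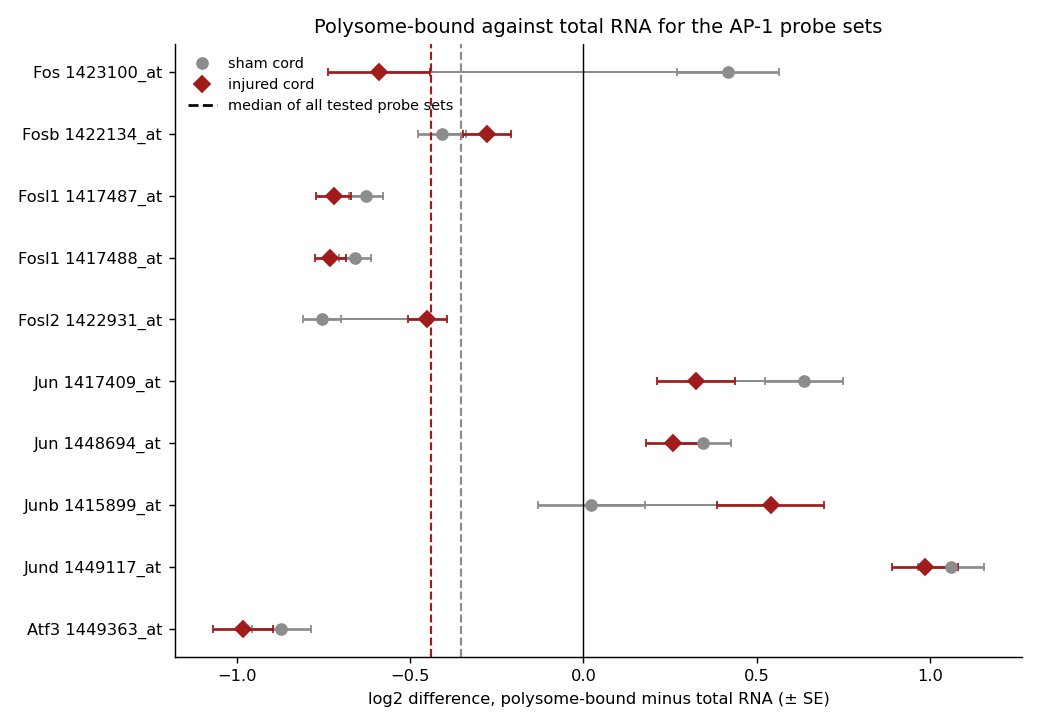
Log2 difference, polysome-bound minus total RNA (x axis, ± SE), for each AP-1 probe set in sham (grey circles) and injured cord (red diamonds); dashed lines mark the median of all tested probe sets in each cord (-0.35 and -0.44). Fos moves from 0.42 to -0.59 and Junb from 0.02 to 0.54, while Jund stays near 1 and Atf3 near -0.9.

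The order of the 4 groups differed from gene to gene in the deposited values, and across fractions it depends on the scaling. Fos ran from sham total RNA (mean 8.95) through sham polysomes (9.36) and injured polysomes (10.11) to injured total RNA (10.70), and the arrays of the last pair overlapped. Junb ran from sham total RNA (7.15) and sham polysomes (7.17), which overlapped, to injured total RNA (7.80) and injured polysomes (8.34). For Atf3 no neighbours overlapped from sham polysomes (6.31), injured polysomes (6.80) and sham total RNA (7.18) to injured total RNA (7.78), with its sham polysome arrays at background. Relative to each array's median, injured polysomes of Atf3 (-0.37) lay above sham total RNA (-0.59), and injured polysomes and injured total RNA of Fos were level at 2.94 and 2.93. Jund split by fraction alone, with sham and injured cord overlapping at 9.94 and 10.00 in total RNA and at 11.00 and 10.98 on polysomes.

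Genes around AP-1 were described from lists of partners, upstream kinases, promoter-binding factors, turnover factors and targets, with 1 probe set a gene. Over 10370 genes tested, 41.8% were higher and 17.9% lower in total RNA, and 13.5% and 24.9% on polysomes, with median changes of 0.12 and -0.04. Of 20 partners and related leucine zipper factors tested, 14 rose and 6 fell in total RNA, and 9 rose and 2 fell on polysomes (median changes 0.26 and 0.17); after quantile normalization over all arrays 9 were higher and 3 lower in total RNA. Maff, a small Maf protein, rose by 0.94 in total RNA and 0.53 on polysomes. Nfe2l2, the master factor of the oxidative stress response, rose by 0.59 and 0.22, and Bach1, a repressor that competes with it, by 0.65 and 0.46 (limma adjusted p of these 6 changes at most 0.0077).

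Kinases that feed AP-1 showed changes in both directions. In the JNK list of 13 genes, 6 rose and 3 fell in total RNA, and 4 rose and 2 fell on polysomes (medians 0.12 and 0.08); after quantile normalization over all arrays 4 were called higher and 5 lower in total RNA, with a median of -0.05, and 7 and 2 on polysomes. Mapk8ip1, the JNK scaffold JIP1 of neurons, had log2 changes of -1.21 (SE 0.16, limma adjusted p = 3.3e-05) and -0.97 (SE 0.16, adjusted p = 0.00031). Map2k4, a kinase that activates JNK, rose by 0.48 in total RNA with 0.08 on polysomes (adjusted p = 0.33), and Map3k1, further upstream, rose by 0.38 on polysomes with 0.12 in total RNA (adjusted p = 0.055). After that normalization Map2k4 was called in both fractions (0.20 and 0.14), with an interaction of -0.06 (adjusted p = 0.58), and Map3k1 was called in total RNA too (0.22). Of 9 ERK, p38 and RSK kinases, 5 rose and 1 fell in total RNA, and 2 rose and 3 fell on polysomes (medians 0.22 and 0.03), and after that normalization 3 were higher and 0 lower in total RNA and 3 and 1 on polysomes. With the hybridization controls 8 of these 9 were higher and 0 lower on polysomes. Mapk14 (p38 alpha) and Map2k1 (MEK1) rose by 0.40 and 0.39 in total RNA and fell on polysomes (log2 changes of -0.18 and -0.19), with called interactions of -0.58 for each, which were -0.26 and -0.20 after quantile normalization over all arrays. Both falls lost their call after quantile normalization (-0.08 and -0.10) and turned with the hybridization controls (0.25 for each), and in total RNA the rise of Mapk14 was 0.18 and that of Map2k1 0.10, the latter not called, after quantile normalization. Rps6ka3, the RSK2 kinase, rose by 0.64 and 0.21.

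Serum response and CREB factors that act on the Fos promoter gave 6 rises and 1 fall among 11 genes in total RNA, and 4 and 2 on polysomes (medians 0.19 and 0.11). Elk4, a partner of serum response factor, rose by 0.41 and 0.32, and Mef2a rose by 0.44 in total RNA and fell on polysomes (-0.20), a fall that was -0.09 and not called after quantile normalization and 0.23 with the hybridization controls. After quantile normalization 3 of the 11 were higher and 1 lower in total RNA, where Elk4 was 0.26 and Mef2a 0.21, both still called. Mrtfb, an actin-regulated coactivator, fell in total RNA (-0.38) with -0.02 on polysomes, and exceeded background on 1 of 12 arrays; its total RNA value was -0.22 after quantile normalization and turned to 0.17 with the hybridization controls.

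All 12 turnover genes tested rose in total RNA, and 5 rose and 0 fell on polysomes (medians 0.35 and 0.07). After quantile normalization over all arrays 6 of the 12 were called higher in each fraction and 0 lower. Zfp36, which encodes tristetraprolin and promotes decay of AU-rich transcripts, rose by 1.37 (SE 0.11, limma adjusted p = 6.8e-07) and 0.77. Itch, a ubiquitin ligase for Jun proteins, rose by 0.55 (0.37 after quantile normalization) and 0.24, and Elavl1, the AU-rich element binder HuR, rose by 0.55 in total RNA with 0.02 on polysomes (adjusted p = 0.86). Of 24 reported AP-1 targets, 19 rose and 0 fell in total RNA, and 11 rose and 3 fell on polysomes (medians 0.41 and 0.26), and 18 and 16 were higher after quantile normalization. Some were dim: Mmp3, Ptgs2, Sprr1a and Tgfb1 exceeded background on 4 of 12 arrays, and Il6 and Lif on 5. In sham total RNA Il6 (mean 6.29), Ptgs2 (6.47) and Mmp3 (6.65) were lowest. These 3 passed the filter mainly through injured arrays, so their rises add no independent support to the counts and medians. Hspb1, a small heat shock protein of injured neurons and glia, rose by 2.87 and 2.00, Hmox1, the inducible heme oxygenase, by 1.72 and 1.21, and Mt1, a metallothionein, by 1.38 and 1.37. None of the turnover genes or targets had a called higher interaction, beside 10.8% of all genes, while 7 of 12 and 11 of 24 had a called lower one, beside 38.9%. After quantile normalization over all arrays 2 turnover genes and 2 targets had a called higher interaction, and 5 and 10 a called lower one. With that scaling 47.8% of the interaction calls over all tested probe sets were higher.

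**Figure D4:**
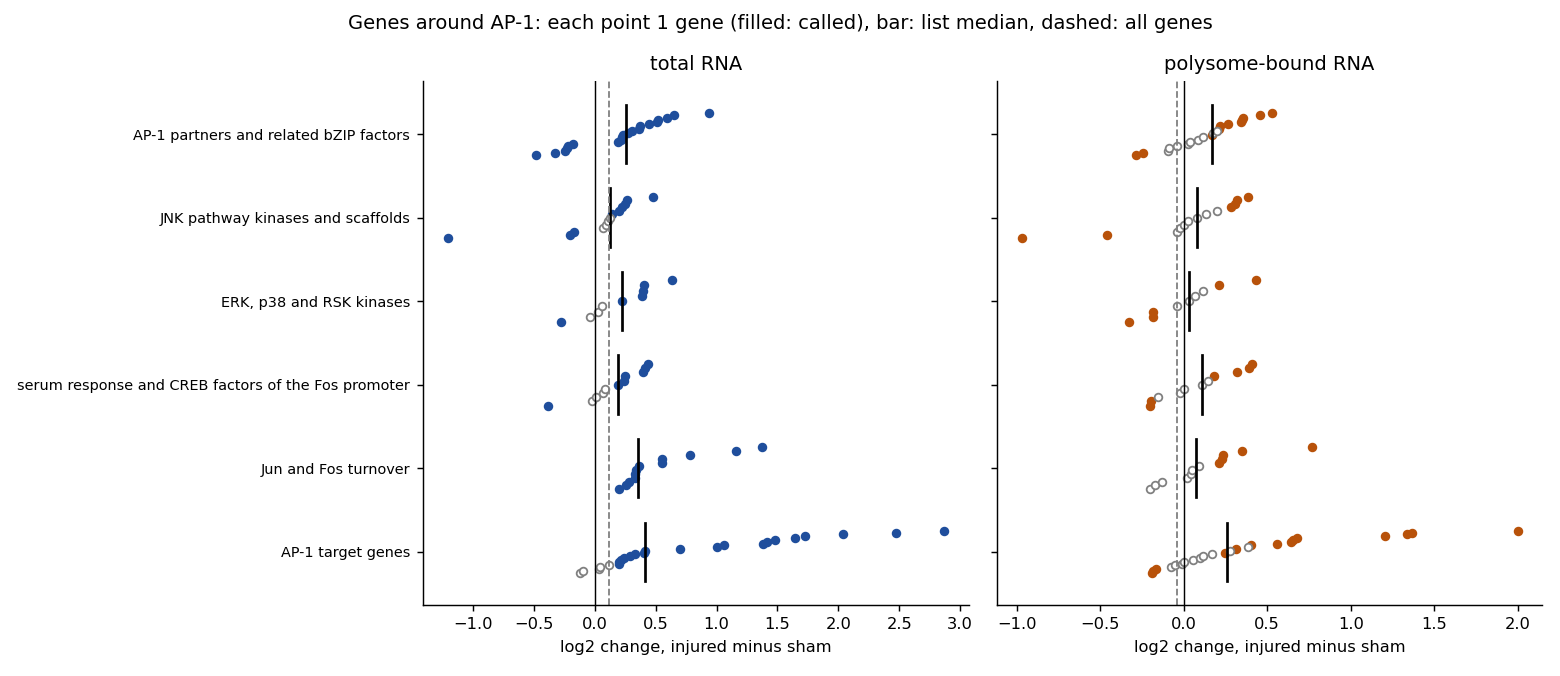
Log2 change, injured minus sham (x axis), of each gene of 6 lists around AP-1 in total RNA (left) and on polysomes (right); filled points were called, short bars are list medians and dashed lines the median of all genes (0.12 and -0.04). As deposited, the turnover genes all lie to the right of zero in total RNA, and the targets reach 2.87 there and 2.00 on polysomes (Hspb1).

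Likeness over the 12 arrays was taken as Pearson's r of values centred on each array's median, as a description, since the arrays fall into 4 groups that share fraction and operation. The genes most like Fos were Plscr1 (r = 0.987), Bhlhe40 (0.985), Ier3 (0.982), Ptpn1 (0.982) and Asic2 (0.977). Of these only Ier3, itself an immediate early gene, was also called higher on polysomes (1.55 in total RNA and 0.55 on polysomes). The others had positive changes of 0.12 to 0.28 there that were not called (limma adjusted p 0.055 to 0.11). The brighter Jun probe set was most like Nop2 (0.995), Smu1 (0.993), Ddx39a (0.991), Mcoln1 (0.991) and Ncbp1 (0.990). Atf3 was most like Il4ra (0.987), Niban2 (0.986), Pla1a (0.978), Btg2 (0.977) and Gbp2 (0.976). Among the members, the Jun probe sets had r = 0.941 with each other, Atf3 had 0.915 with Fosl1 and 0.605 with Fos, and Fos had 0.761 with Junb. By r with Fos, Junb ranked 1061 and Atf3 2497 among tested probe sets. The members did not all move together. Atf3 had 0.00046 with the brighter Jun probe set, -0.18 with the other and -0.48 with Jund, and Fos had -0.30 with Fosl2.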

How the data were processed

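Total and polysome-bound RNA of 12 samples had been hybridised to Affymetrix arrays, per the labels from 5 µg or 3 µg of RNA in a one-cycle biotin labelling. The values used are the deposited log2 values of 22690 probe sets in the series matrix (5.26 to 14.65); that they are on a log2 scale was read from the values, and the authors' summarisation and normalization are not given in the sources used here. Array medians differ between fractions. Gene names came from the platform annotation: 20380 probe sets had 1 symbol, 691 several, 1555 none and 64 were controls, and 12377 of 12393 symbols were in RefSeq.

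Probe sets above an array's 25th percentile on at least 3 arrays were tested (16555). limma 3.58.1 in R 4.3.3 was fitted to 4 group means with a moderated, intensity-trended spread, and p-values were two-sided with Benjamini-Hochberg adjustment over all probe sets of a comparison, called at 0.05. The procedure was tested on simulated data. Array measures used exact permutation tests. Within-group array correlations were 0.992 to 0.998; the number of arrays limits the precision.

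The members and lists were chosen with earlier results of these data known. All member probe sets are named; each list names the 3 genes with the lowest adjusted p in either injury comparison, and likeness names the top 5. Alternatives were scalings, filters, weights, blocks and arrays left out. Same-numbered sham total and polysome arrays deviated together weakly (r of deviations 0.19, 0.17 and 0.14), and injured ones had -0.09, 0.06 and 0.04. Correlations this weak over 3 arrays a group cannot settle whether equal numbers mark a pair, and the labels do not say. The block changed no member's call between the sham fractions.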

Additional observations from a re-analysis of the deposited data

Results flagged for a closer look

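Fos had an injury change on polysomes that differed from that in total RNA (interaction -1.01, SE 0.21, limma adjusted p = 0.0016): a rise of 0.75 against one of 1.76. Every fit that left out 1 array kept the sign (-1.20 to -0.88). For Fosl2 the interaction was 0.30 (SE 0.08, adjusted p = 0.0059), with a log2 change of -0.18 in total RNA and 0.12 on polysomes, the latter not called; leaving out 1 array gave 0.25 to 0.34. Both were flagged because the difference between the fractions was itself past the threshold. That held for 22.2% of the 9 members tested and for 50.5% of all probe sets tested, so the call alone does not set them apart. The call of Fosl2 was lost with centring on the hybridization controls. Over the same arrays the Gapdh 3′ minus 5′ difference was 1.17 larger after injury on the total RNA arrays and 1.96 larger on the polysome arrays; its part in these values was not tested.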

How the results depend on the processing

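Of 1068 values of member probe sets under alternatives, 993 kept their direction and side of the threshold, 24 gained a call, 25 lost one and 26 changed sign. The sign changes were as follows. After quantile normalization over all arrays: Jund -0.22 in total RNA, 0.053 on polysomes and 0.28 as interaction; Jun (1448694_at) 0.11 as interaction; on polysomes against total RNA, Fosb 0.17 in sham and 0.22 in injured cord and Fosl2 0.14 in injured cord. After quantile normalization within each fraction: Jund -0.21, 0.057 and 0.27, and Jun (1448694_at) 0.20. After median centring: Jund 0.063 on polysomes and 0.016 as interaction, Jun (1448694_at) 0.0053 as interaction, Fosb 0.10 in sham and 0.32 in injured cord, Fosl2 0.15 and Fos 0.013 in injured cord, polysomes against total RNA. With array weights: Jund 0.041 on polysomes and 0.0022 as interaction. Without 1 array, Jund ran from -0.0090 to 0.12 in total RNA, -0.092 to 0.11 on polysomes and -0.15 to 0.049 as interaction. With the hybridization controls: Fosl2 0.37 in total RNA and Jund 0.42 on polysomes.

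That last scaling called 94.1% of probe sets in total RNA and 78.0% on polysomes. A filter at the array median tests fewer probe sets, and left 4 members called in total RNA, 3 on polysomes, 1 as interaction, and 4 (sham) and 5 (injured) between fractions. The interaction called 4 members after quantile normalization within each fraction and with array weights, and 2 to 4 without 1 array; the cause was not tested. With a replicate block on the number, 48.8% of probe sets had a called interaction, and Fos kept -1.01 (adjusted p = 0.00078); blocking on number within operation called Junb (0.52, adjusted p = 0.048) and changed no other member's call. Signal over background limits Fosb and Fosl1.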
